A study of Mus musculus with 6 samples.

Results

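Plasminogen activators are secreted serine proteases that cut plasminogen into plasmin, which in turn degrades fibrin and matrix proteins and activates some matrix metalloproteinases. Serpins are suicide inhibitors that trap such proteases, and tissue inhibitors of metalloproteinases (TIMPs) block metalloproteinases in the extracellular space. In gliomas both systems are known for their part in matrix breakdown and invasion. The genes described here are 8 rows of a count table of 55453 gene symbols, chosen by symbol: the activators Plau and Plat, the activator receptor Plaur, the serpins Serpine2 and Serpinb2, and the inhibitors Timp1, Timp2 and Timp3. All 8 were present in the table and all 8 passed the filter on low counts. They do not include every inhibitor of these proteases.

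Poly(A)-enriched RNA was sequenced from 6 samples labelled SB28, a mouse glioma line, with the strain label C57BL/6. The groups are 3 libraries labelled RNA-PP2AcKO with the genotype PP2A KO, and 3 labelled RNA-PP2AcWT with the genotype Wild Type; neither age nor agent is given. PP2Ac is the catalytic subunit of the serine and threonine phosphatase PP2A. The series' design text speaks instead of SB28 tumours grown under the skin or in the brain of wild-type hosts and of LysMcrePP2Acfl/fl hosts, in which Cre from the LysM locus deletes PP2Ac in myeloid cells. Whether the deletion lay in SB28 or in host cells cannot be told apart from the labels, and knockout and wild type name the labelled groups only. The labels do not say that the replicates were separate cultures or animals, so p-values reflect the spread of these libraries only, and that spread may be technical. Fewer cells of a type and less RNA per cell cannot be told apart in such bulk libraries.

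Total counts ranged from 38735864 to 49344079 per library. Ppp2ca, a gene of the PP2A catalytic subunit, ranged from 244 to 274 CPM (counts scaled by library size) over the wild-type libraries. Over the knockout libraries it ranged from 187 to 217 CPM (log2 fold change -0.36, SE 0.08, edgeR quasi-likelihood adjusted p = 0.00377). Its message was thus present in all 6 libraries. The labels do not name the gene that was targeted. Both libraries numbered 1 stood apart from the others of their group. Of 13 markers of macrophages and microglia 12 were below the filter, and Adgre1, C1qa, C1qb and Tyrobp had 0 counts in all 6 libraries. Their summed level ran from 3.37 to 3.73 CPM over wild-type and from 5.12 to 5.65 CPM over knockout libraries, most of it from Cd68, which rose (3.01 to 4.43 CPM, adjusted p = 0.00346). The summed level of 6 T cell markers was at most 0.128 CPM in any library, and that of 5 red cell markers at most 0.101 CPM. The neuron and oligodendrocyte lists summed to at most 14.7 and 16.7 CPM. The astrocyte list summed to 545 to 586 CPM over wild-type and 375 to 410 CPM over knockout libraries, most of it Gja1, which fell, as did Aldh1l1, while Slc1a3 (34 and 150 counts over the wild-type and knockout libraries) and Slc1a2 (1.42 to 2.49 CPM) rose, and Aqp4 had 0 counts. The fibroblast and pericyte list summed to 2317 to 3211 CPM and 1274 to 1846 CPM, most of it Col1a1, which did not pass, and, for wild type, Col1a2. In that list Col1a2 and Rgs5 fell, Dcn rose from 1.28 to 32.7 CPM and Pdgfrb from 81.2 to 129 CPM, and Lum had 1 count. Among 10 markers listed for SB28, the astrocyte marker Gfap and the oligodendrocyte factor Olig2 were below the filter, Olig2 with 0 counts, while Vim, Cd44, Nras and Nes had means of at least 164 CPM in both groups. The summed level of that list ran from 6501 to 6600.4 CPM over wild-type and from 3515 to 3546 CPM over knockout libraries. Of its 8 tested members Vim (4791 to 1882 CPM), Nes (368 to 164 CPM), Sox2 (116 to 78.4 CPM) and Cspg4 (8.66 to 0.127 CPM) fell, Pdgfra and Nras rose, and 2 did not pass. The part of these marker differences in the results below was not tested.

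Of the 8 genes 5 rose, 2 fell and 1 did not pass the test in the knockout libraries. Among the 8, both serpin genes, low in wild type, rose the most. The receptor gene Plaur rose 2.56-fold, Plat and Timp3 each fell by about 2 log2 units, Timp1 and Timp2 rose by 1.15-fold and 1.16-fold, and Plau did not pass. The test is edgeR's quasi-likelihood F-test with Benjamini-Hochberg adjustment over the 14877 genes tested, with a threshold of 0.05, and a fold change is knockout over wild type. Over all those genes 64.0% passed, 31.9% higher and 32.1% lower, so that a call as such was common. The groups did not overlap in any of the 8 genes, as in 68.3% of all genes tested. The sizes of the changes differed widely: 0.834% of the tested genes had a larger absolute log2 fold change than Serpine2 and 1.01% a larger one than Serpinb2, against 8.23% for Plat, 8.35% for Timp3, 14.5% for Plaur, 76.3% for Timp2, 77.3% for Timp1 and 83.3% for Plau.

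**Figure D1:**
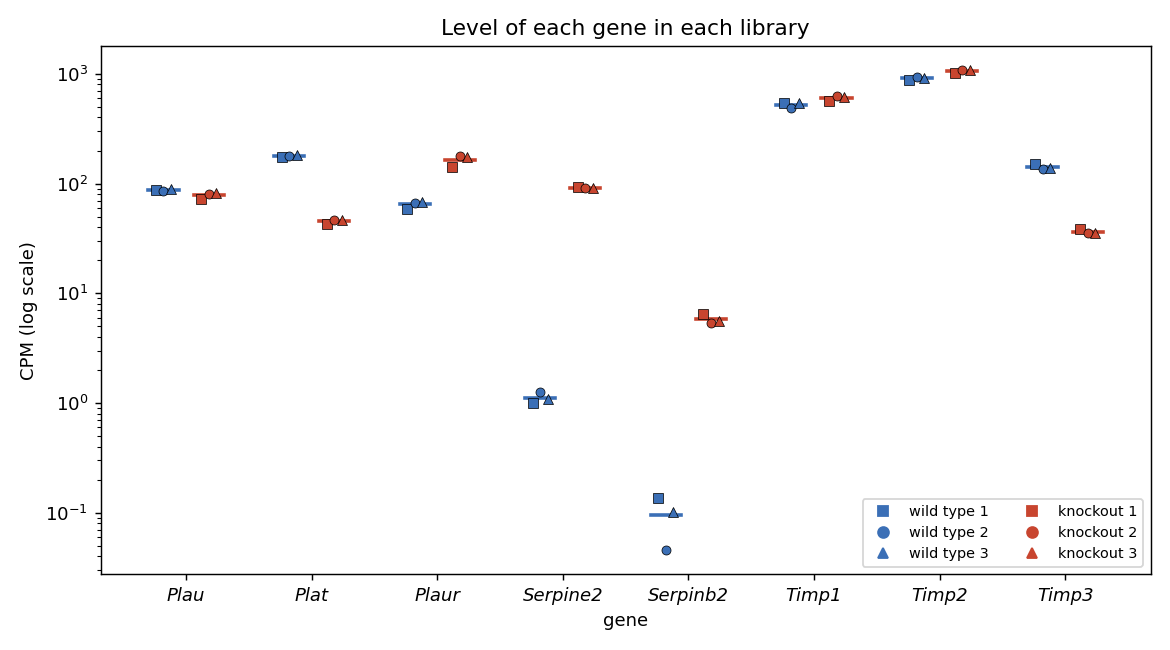
Level of each of the 8 genes in CPM (log scale) in the 3 wild-type and 3 knockout libraries, with a horizontal line at each group's mean. Serpine2 and Serpinb2 lie near or below 1 CPM in wild type and at 91.4 and 5.79 CPM in knockout, while Plau, Timp1 and Timp2 shift little.

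Start-site sequences are shown first for the 3 genes with the largest rises, so that the results below can be read beside them. Of the 8 genes 6 had an entry in the RefSeq promoter table of GRCm38.p6, and Plau and Plat are named only. Each run is the stretch before the RefSeq start site that lies outside annotated exons of the gene, 5′ to 3′ on the gene's strand. Capitals mark matches to any of 7 motifs on either strand. The Serpine2 run lies inside the annotated gene, whose 5′ end is further upstream at 79861180. The window searched for Timp2 also lies inside its annotated gene, whose 5′ end is at 118355740.
Plaur, chr7:24462233-24462482, plus strand: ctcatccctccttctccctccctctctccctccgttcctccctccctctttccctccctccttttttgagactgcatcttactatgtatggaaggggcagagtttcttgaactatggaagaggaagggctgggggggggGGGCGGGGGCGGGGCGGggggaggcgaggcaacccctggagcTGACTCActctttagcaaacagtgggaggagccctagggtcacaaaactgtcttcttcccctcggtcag
Serpinb2, chr1:107511173-107511422, plus strand: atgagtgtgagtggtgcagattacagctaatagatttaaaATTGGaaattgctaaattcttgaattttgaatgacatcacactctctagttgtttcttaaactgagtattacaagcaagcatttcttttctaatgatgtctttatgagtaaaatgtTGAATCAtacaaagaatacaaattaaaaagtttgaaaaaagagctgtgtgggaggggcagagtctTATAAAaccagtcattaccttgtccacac
Serpine2, chr1:79858697-79858915, minus strand: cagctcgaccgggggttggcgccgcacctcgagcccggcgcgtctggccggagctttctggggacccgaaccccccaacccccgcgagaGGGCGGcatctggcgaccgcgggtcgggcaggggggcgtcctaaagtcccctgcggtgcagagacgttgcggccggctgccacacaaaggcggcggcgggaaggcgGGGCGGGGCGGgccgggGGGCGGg

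The 3 stretches differ in composition. The 250 bases before the start held 59.6% G and C for Plaur, 32.4% for Serpinb2 and 78.8% for Serpine2. The AP-1 motif TGANTCA, the element that FOS and JUN dimers bind, was matched 69 to 63 bases before the start of Plaur and 94 to 88 bases before that of Serpinb2. It is held by 6.75% of the 32851 promoter windows of this length, and it was not matched in the windows of Serpine2, Timp1, Timp2 or Timp3. The TATA box letters TATAAA stood 29 to 24 bases before the start of Serpinb2 and in no other of the 6 genes (12.4% of all windows). GC boxes (GGGCGG, 32.7% of all windows) were matched in Plaur, Serpine2, Timp1, Timp2 and Timp3, with neighbouring matches that share a base in Plaur and Serpine2. The Timp3 match, 15 to 10 bases before the RefSeq start at 86300412, lies inside the annotated gene, which begins at 86300372. In Serpine2 the matches 19 to 14 and 13 to 8 bases before the start lie beyond the end of the printed run. Serpinb2 has a second RefSeq start at 107511510, from which the same AP-1 match lies 181 to 175 and the same TATA letters 116 to 111 bases upstream; its window holds 38.4% G and C and no CCAAT match. With the first start, used for the values above, the CCAAT box was matched in Serpinb2, Timp1 and Timp2 (33.8% of all windows). The CRE motif TGACGTCA (1.55% of all windows), the ISRE motif of interferon-induced genes (2.98%) and the NF-kB motif (7.25%) were not matched in these windows. A match describes letters only, and no binding was measured.

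Plau encodes urokinase, the activator that acts at the cell surface when bound to its receptor. Its locus is chromosome 14, 20836660 to 20843385, plus strand (ENSMUSG00000021822.3, GRCm38). Wild-type libraries 1, 2 and 3 held 86.8, 84.8 and 89.5 CPM of it, and knockout libraries 1, 2 and 3 held 73.0, 80.0 and 82.6 CPM. The knockout values all lay below the wild-type values, by a margin that was small against their spread. Mean levels were 87.0 ± 2.35 CPM for wild type and 78.5 ± 4.95 CPM for knockout (SD, n = 3), with a log2 fold change of -0.15 (SE 0.07, edgeR adjusted p = 0.0942). Its 95% interval ran from a ratio of 0.807 to 1.01. With the replicate number as a block, Plau passed as lower (edgeR log2 fold change -0.15, adjusted p = 0.00307). It also passed with upper-quartile scaling (-0.21, edgeR adjusted p = 0.0274) and without both libraries numbered 1 (-0.09, edgeR adjusted p = 0.0408), and the adjusted p lay between 0.00307 and 1 over all settings tried.

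Plat encodes tissue plasminogen activator, the activator best known for dissolving fibrin and, in brain, for acting at synapses. The gene spans chromosome 8, 22757727 to 22782844, plus strand (ENSMUSG00000031538.6). Its level was 175, 180 and 183 CPM in the wild-type libraries, in the order 1, 2 and 3, and 43.0, 46.2 and 46.6 CPM in the knockout libraries. The replicates of each group lay close together and the groups were far apart. Mean levels were 179 ± 3.79 CPM for wild type and 45.3 ± 1.93 CPM for knockout (SD, n = 3). Plat fell 3.96-fold (log2 fold change -1.98, SE 0.07, edgeR adjusted p = 4.35e-08), the largest fall among the 8 genes and close to that of Timp3.

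The 2 activators therefore changed unequally. The log2 ratio of Plau to Plat counts within a library was -1.01, -1.08 and -1.03 over wild-type libraries 1, 2 and 3, against 0.76, 0.79 and 0.83 over knockout libraries 1, 2 and 3. It rose by 1.84, a 3.57-fold shift, with no overlap between the groups. With 3 libraries against 3 the two-sided exact permutation test cannot go below p = 0.1, and it gave 0.1 for this pair and for all other pairs below except Timp1 to Timp2 (0.114 after Benjamini-Hochberg adjustment over the 8 pairs compared). Per kilobase of annotated exon, Plau made up 56.2 ± 0.617% of the summed level of both activators in wild type and 82.0 ± 0.331% in knockout (SD, n = 3). The summed level fell from 65.5 ± 1.40 to 40.4 ± 2.40 CPM per kilobase (SD, n = 3). By counts Plat stood above Plau in wild type (179 and 87.0 CPM) and below it in knockout (45.3 and 78.5 CPM). The shares and sums per kilobase therefore depend on the length used, which sums all annotated exons of a gene.

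Plaur encodes the urokinase receptor, a lipid-anchored surface protein that holds urokinase at the membrane and binds vitronectin and integrins. It maps to chromosome 7 from 24462484 to 24475968, plus strand (ENSMUSG00000046223.10), downstream of the stretch with the AP-1 match printed above. Wild-type libraries 1, 2 and 3 held 58.9, 66.6 and 67.7 CPM of it, and knockout libraries 1, 2 and 3 held 143, 177 and 174 CPM. The library numbered 1 was the lowest in both groups, and the groups did not overlap. Mean levels were 64.4 ± 4.78 CPM for wild type and 165 ± 19.0 CPM for knockout (SD, n = 3), a 2.56-fold rise (log2 fold change 1.35, SE 0.10, edgeR adjusted p = 4.20e-06). Without both libraries numbered 1 the log2 fold change was 1.39. The log2 ratio of Plau to Plaur counts went from 0.44 ± 0.11 in wild type to -1.06 ± 0.09 in knockout (SD, n = 3). Per kilobase of annotated exon, Plaur stood below Plau in each wild-type library (means 24.6 and 36.8 CPM per kilobase) and above it in each knockout library (62.9 and 33.2).

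Serpine2 encodes protease nexin 1, a secreted serpin that inhibits thrombin, urokinase and tissue plasminogen activator and is made by glial cells. Its position is chromosome 1, 79794197 to 79861180, minus strand (ENSMUSG00000026249.10). Wild-type libraries 1, 2 and 3 had 51, 56 and 43 raw counts, and knockout libraries 1, 2 and 3 had 4111, 3709 and 3588, or 0.999, 1.27 and 1.08 CPM against 92.1, 90.5 and 91.7 CPM. The knockout libraries differed by less than 2 CPM from each other. Mean levels were 1.12 ± 0.139 CPM for wild type and 91.4 ± 0.829 CPM for knockout (SD, n = 3), an 81.9-fold rise (log2 fold change 6.36, SE 0.10, edgeR adjusted p = 1.07e-09). By p value it ranked ninth of all genes tested. The log2 ratio of Plat to Serpine2 counts fell from 7.32 ± 0.16 to -1.02 ± 0.07 (SD, n = 3), a 322-fold shift, and that of Plau to Serpine2 from 6.28 ± 0.20 to -0.22 ± 0.10.

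Serpinb2 encodes plasminogen activator inhibitor 2, a serpin that inhibits urokinase and tissue plasminogen activator, stays largely inside cells and is known as a strongly inducible gene of activated macrophages. The locus is chromosome 1, 107511423 to 107535478, plus strand (ENSMUSG00000062345.10). Wild-type libraries 1, 2 and 3 had 7, 2 and 4 raw counts, and knockout libraries 1, 2 and 3 had 289, 219 and 217. The wild-type libraries were near the limit of detection, and each knockout library was well above it. Mean levels were 0.0944 ± 0.0462 CPM for wild type and 5.79 ± 0.604 CPM for knockout (SD, n = 3), a 58.5-fold rise with a 95% interval from 39.6 to 86.4 (log2 fold change 5.87, SE 0.25, edgeR adjusted p = 1.49e-07). The log2 ratio of Plau to Serpinb2 counts fell from 9.79 ± 0.69 to 3.76 ± 0.23 (SD, n = 3). Of its exon bases 12.4% are shared with Serpinb10 on the same strand, for which all 6 libraries had 0 counts. The macrophage markers Adgre1, C1qa, C1qb and Tyrobp also had 0 counts in the knockout libraries, and Lyz2, the gene of lysozyme, had 1 count in wild type and 44 in knockout. Ptprc had 31 and 11 counts over the wild-type and knockout libraries, Csf1r 23 and 10, Cx3cr1 7 and 4, and Fcer1g 16 and 37. Itgam had 0 and 2, Aif1 1 and 1, and P2ry12 1 and 7. All of these were below the filter and were not tested. Cd68, the tested marker of that list, rose from 3.01 to 4.43 CPM (edgeR adjusted p = 0.00346). Which cells the Serpinb2 counts came from was not tested.

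Per kilobase of exon, Serpine2 and Serpinb2 together stood at 0.175 ± 0.00340 CPM per kilobase for wild type and 13.5 ± 0.344 for knockout (SD, n = 3). Set against both activators, whose levels are on the same scale, this was 0.267 ± 0.00881% of their sum in wild type and 33.5 ± 2.83% in knockout. Most of the shift came from the rise of the serpin sum. The activator sum fell far less, from 65.5 to 40.4 CPM per kilobase. The percentages also depend on the exon length used for each gene.

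**Figure D2:**
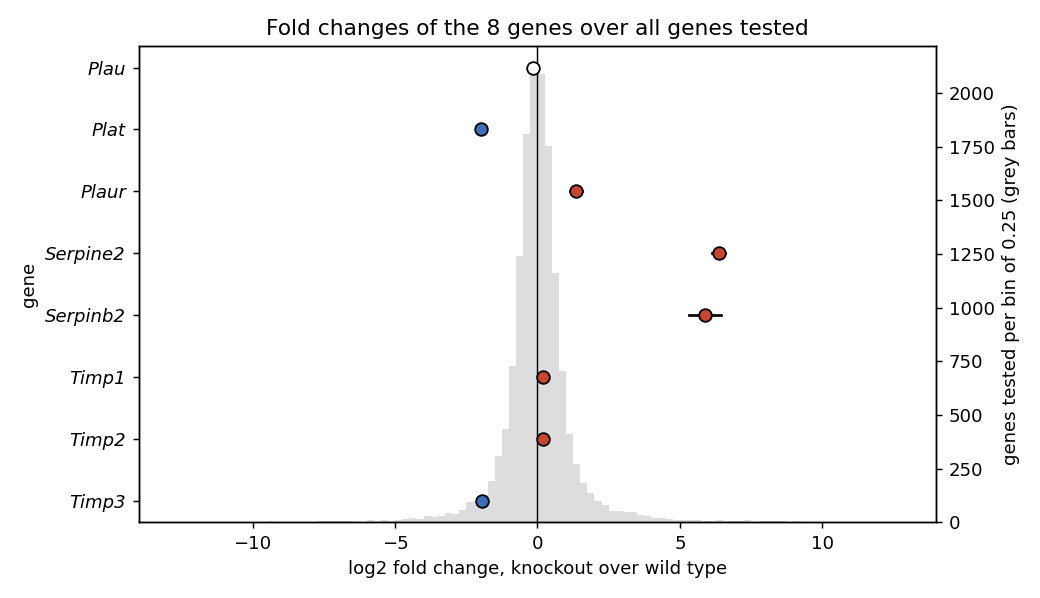
Log2 fold change of each gene (points, left axis; bars are 95% intervals; red passed as higher, blue as lower, white did not pass) over a histogram of all 14877 genes tested (grey, right axis). Serpine2 at 6.36 and Serpinb2 at 5.87 lie in the sparse right tail, and Plau, Timp1 and Timp2 lie near 0.

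Timp1 encodes a secreted inhibitor of most matrix metalloproteinases that is induced by many cytokines and also binds the surface protein CD63. It spans chromosome X, 20870166 to 20874735, plus strand (ENSMUSG00000001131.11), inside the Syn1 gene of the opposite strand, with which it shares 0 exon bases. Its level was 541, 490 and 538 CPM in the wild-type libraries, in the order 1, 2 and 3, and 567, 623 and 614 CPM in the knockout libraries. The lowest knockout library lay only a little above the highest wild-type library. Mean levels were 523 ± 28.8 CPM for wild type and 601 ± 30.0 CPM for knockout (SD, n = 3), a 1.15-fold rise (log2 fold change 0.20, SE 0.07, edgeR adjusted p = 0.0324).

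Timp2 encodes the inhibitor that also bridges the membrane protease MMP14 and the inactive form of MMP2, a step in the activation of MMP2. The gene maps to chromosome 11 from 118301069 to 118355740, minus strand (ENSMUSG00000017466.9). Wild-type libraries 1, 2 and 3 held 888, 933 and 925 CPM of it, and knockout libraries 1, 2 and 3 held 1016, 1085 and 1074 CPM. Mean levels were 915 ± 24.4 CPM for wild type and 1058 ± 37.3 CPM for knockout (SD, n = 3), a 1.16-fold rise (log2 fold change 0.21, SE 0.06, edgeR adjusted p = 0.0159).

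The calls of both small rises depended on single libraries and on scaling. Timp1 did not pass edgeR's test without wild type 2 (adjusted p = 0.12), wild type 3 (0.0727), knockout 2 (0.101) or knockout 3 (0.0994), nor with upper-quartile scaling (0.122). Timp2 did not pass it without wild type 3 (adjusted p = 0.0615), knockout 2 (0.0578) or knockout 3 (0.0591), nor with upper-quartile scaling (0.0689). With the replicate number as a block, a pairing that no label gives, both passed (edgeR adjusted p = 0.000708 for Timp1 and 2.04e-05 for Timp2). They also passed without both libraries numbered 1 (edgeR adjusted p = 2.99e-06 and 9.59e-06). Neither gene passed against a fold change of 1.5 (edgeR glmTreat adjusted p = 1 for both), and over all alternatives the log2 fold change was 0.14 to 0.27 for Timp1 and 0.15 to 0.25 for Timp2.

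Timp3 encodes the TIMP that binds tightly to the extracellular matrix and that inhibits ADAM17 and aggrecanases besides matrix metalloproteinases. Its span is chromosome 10, 86300372 to 86349506, plus strand (ENSMUSG00000020044.13). Its level was 152, 136 and 138 CPM in the wild-type libraries, in the order 1, 2 and 3, and 38.5, 35.3 and 35.4 CPM in the knockout libraries. The library numbered 1 was the highest in each group, and the groups were far apart. Mean levels were 142 ± 8.91 CPM for wild type and 36.4 ± 1.85 CPM for knockout (SD, n = 3), a 3.90-fold fall (log2 fold change -1.96, SE 0.08, edgeR adjusted p = 9.83e-08). Of its exon bases 21.3% overlap exons of Syn3, a gene of the opposite strand, and Syn3 had 30 and 61 counts over the wild-type and knockout libraries against 19247 and 4549 for Timp3.

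The 3 TIMP genes thus did not change alike. The log2 ratio of Timp1 to Timp3 counts rose from 1.88 ± 0.07 to 4.05 ± 0.14 (SD, n = 3), a 4.48-fold shift. The ratio of Timp2 to Timp3 rose from 2.69 ± 0.13 to 4.86 ± 0.12 (SD, n = 3), a 4.51-fold shift. The ratio of Timp1 to Timp2 was -0.81 ± 0.11 in wild type and -0.82 ± 0.02 in knockout (SD, n = 3), a difference of -0.01 that was smaller than the spread between libraries (two-sided exact permutation p = 0.9, also after adjustment over the 8 pairs). Per kilobase of exon, Timp3 made up 2.07 ± 0.106% of the summed level of the 3 genes in wild type and 0.470 ± 0.0461% in knockout, while Timp1 stood at 70.0 ± 1.51% and 71.0 ± 0.338% (SD, n = 3). By counts Timp2 stood above Timp1 in wild type (915 and 523 CPM) and in knockout (1058 and 601 CPM). The shares therefore depend on the exon length used.

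**Figure D3:**
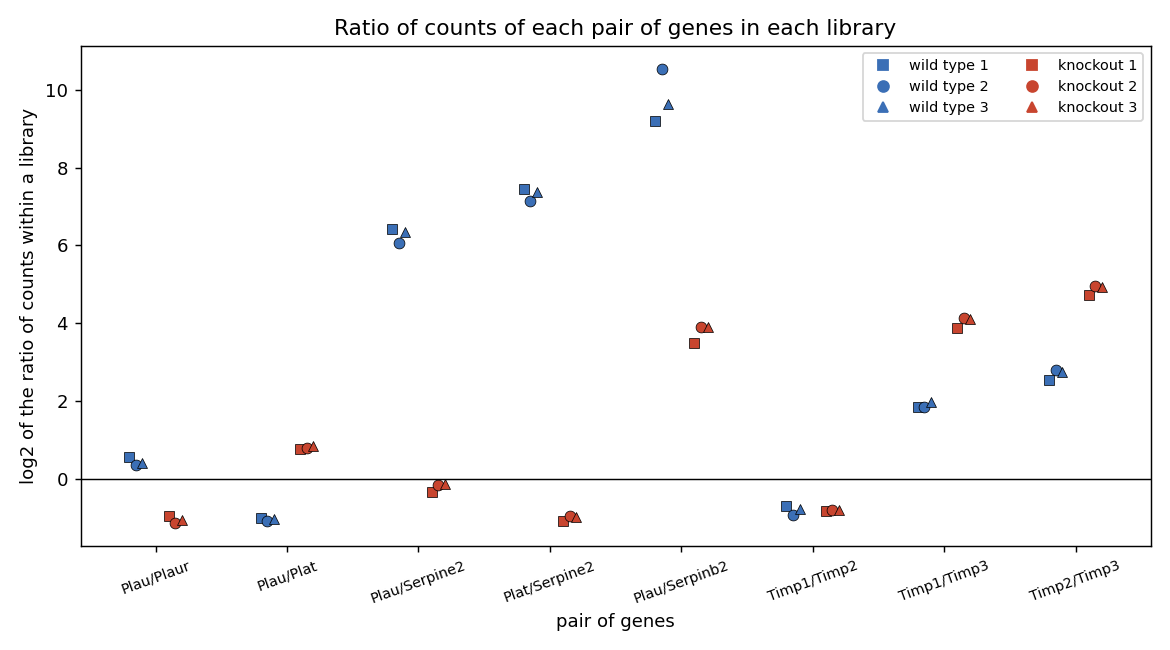
Log2 of the ratio of raw counts of 2 genes within each library, for the 8 pairs (counts plus 0.5), with wild-type libraries in blue and knockout libraries in red. The groups are apart in 7 pairs, most for Plat/Serpine2 (7.32 against -1.02), and overlap for Timp1/Timp2.

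The order of levels per kilobase of exon changed between the groups. Over the wild-type libraries it ran Timp1 (589 CPM per kilobase), Timp2 (235), Plau (36.8), Plat (28.7), Plaur (24.6), Timp3 (17.4), Serpine2 (0.135) and Serpinb2 (0.0402). Over the knockout libraries it ran Timp1 (677 CPM per kilobase), Timp2 (272), Plaur (62.9), Plau (33.2), Serpine2 (11.03), Plat (7.25), Timp3 (4.47) and Serpinb2 (2.46). Timp1 and Timp2 were first and second in both groups. No neighbours in either order overlapped in their library values, but the length used sums all annotated exons of a gene. The order of genes as close as Plau, Plat and Plaur in wild type therefore also depends on which isoforms were present. That length includes exon bases shared with other genes, 21.3% for Timp3 and 12.4% for Serpinb2. Reads there may not have been counted, so the place of Timp3 next to Plaur in wild type is also uncertain.

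Receptors and partners of the plasminogen system changed in both directions. Of 27 listed genes of the plasminogen system and of clotting at the cell surface 22 were tested, of which 8 rose, 8 fell and 6 did not pass. The share called was 72.7%, against 64.0% of all genes tested (31.9% higher and 32.1% lower). Their median log2 fold change was -0.10 against -0.01 over all genes tested. This list and the lists of other serpins and metalloproteinases below were chosen with earlier results of these data known. Their shares and medians are descriptions only. Plg, the plasminogen gene itself, named here after its value was seen, had 2 counts over the wild-type libraries and 0 over the knockout libraries. Thbd, which encodes thrombomodulin, a cofactor that turns thrombin from a clotting into an anticoagulant enzyme, rose from 27.8 ± 1.58 to 228 ± 4.80 CPM (SD, n = 3; log2 fold change 3.04, SE 0.07, edgeR adjusted p = 8.96e-09). Procr, the endothelial protein C receptor that works beside it, rose from 12.3 ± 0.740 to 24.7 ± 1.67 CPM. Both are known from endothelial cells; of 6 endothelial markers Kdr rose from 1.65 to 7.78 CPM (edgeR adjusted p = 2.33e-06), Cdh5 was at 415 and 435 CPM without passing, Cldn5 had 0 counts, Pecam1 was at 0.282 and 0.344 CPM, and Tie1 and Emcn were below the filter. S100a10, a subunit of a surface complex that binds plasminogen and Plat protein, fell by 1.24 on the log2 scale (SE 0.09, edgeR adjusted p = 4.74e-06), from 138 ± 15.7 CPM to 58.6 ± 2.80 CPM. Vldlr, a receptor that takes up complexes of serpins with proteases, rose 2.06-fold from 67.6 ± 3.26 to 139 ± 8.88 CPM. The integrin genes Itga5 and Itgb1, whose products pair as a fibronectin receptor, went opposite ways, Itga5 from 237 ± 17.8 to 501 ± 38.9 CPM and Itgb1 from 2333 ± 140 to 1432 ± 108 CPM.

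Other serpin genes showed no common direction. Of 20 listed 13 were tested, of which 6 rose, 4 fell and 3 did not pass. The share called was 76.9%, against 64.0% of all genes tested, and the median log2 fold change was 0.34 against -0.01. Serpini1, which encodes neuroserpin, an inhibitor of tissue plasminogen activator in neurons, rose from 1.13 ± 0.105 to 9.02 ± 0.552 CPM (SD, n = 3; log2 fold change 2.98, SE 0.12, edgeR adjusted p = 1.37e-07). Serpinf1, the gene of pigment epithelium-derived factor, rose from 210 ± 4.41 to 318 ± 6.26 CPM, and the intracellular serpin gene Serpinb6a from 139 ± 14.4 to 203 ± 5.71 CPM. Serpinb9b rose from 16.0 ± 1.96 to 20.6 ± 2.87 CPM (edgeR adjusted p = 0.0324), and its close relative Serpinb9, a granzyme B inhibitor, was at 6.51 ± 1.31 and 8.04 ± 1.52 CPM (edgeR adjusted p = 0.162); reads shared by such similar genes can be split or dropped. Serpinb8 fell from 5.22 ± 0.0927 to 2.77 ± 0.170 CPM.

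The proteases that TIMPs inhibit changed in both directions, several by more than any TIMP gene. Of 33 listed metalloproteinases and partners 27 were tested, of which 13 rose, 10 fell and 4 did not pass. The share called was 85.2%, against 64.0% of all genes tested, and the median log2 fold change was 0.34 against -0.01. The stromelysin genes Mmp3 and Mmp10 rose from 15.9 ± 1.98 to 2887 ± 117 CPM and from 1.88 ± 0.212 to 189 ± 23.0 CPM, and the macrophage elastase gene Mmp12 from 0.0700 ± 0.0597 to 10.4 ± 1.29 CPM (SD, n = 3). The collagenase gene Mmp13 had 12 counts over the wild-type libraries and 34035 over the knockout libraries. Mmp2, a gelatinase gene, fell by 2.71 on the log2 scale (SE 0.10, edgeR adjusted p = 7.72e-08), from 37.2 ± 2.64 CPM to 5.66 ± 0.495 CPM, and Adamts1, an aggrecanase gene, from 54.3 ± 2.89 to 19.1 ± 1.06 CPM. The following were named after their values were seen. Mmp14, the membrane protease that Timp2 bridges to Mmp2 protein, rose from 224 to 284 CPM (edgeR adjusted p = 0.00398), Reck, a membrane-anchored inhibitor of metalloproteinases, from 3.16 to 8.47 CPM (edgeR adjusted p = 2.74e-06), and Adam17, a sheddase that Timp3 protein inhibits, from 72.0 to 126 CPM (edgeR adjusted p = 5.68e-06). Others of the same list went the other way. Mmp16 fell from 11.7 to 3.63 CPM (edgeR adjusted p = 1.27e-06) and Adam10 from 167 to 129 CPM (edgeR adjusted p = 0.00714). Adam9, Adam12, Adam15, Adam19, Adamts9 and Mmp24 also fell. Timp4, the remaining TIMP gene, had 2 counts over the wild-type libraries and 0 over the knockout libraries.

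**Figure D4:**
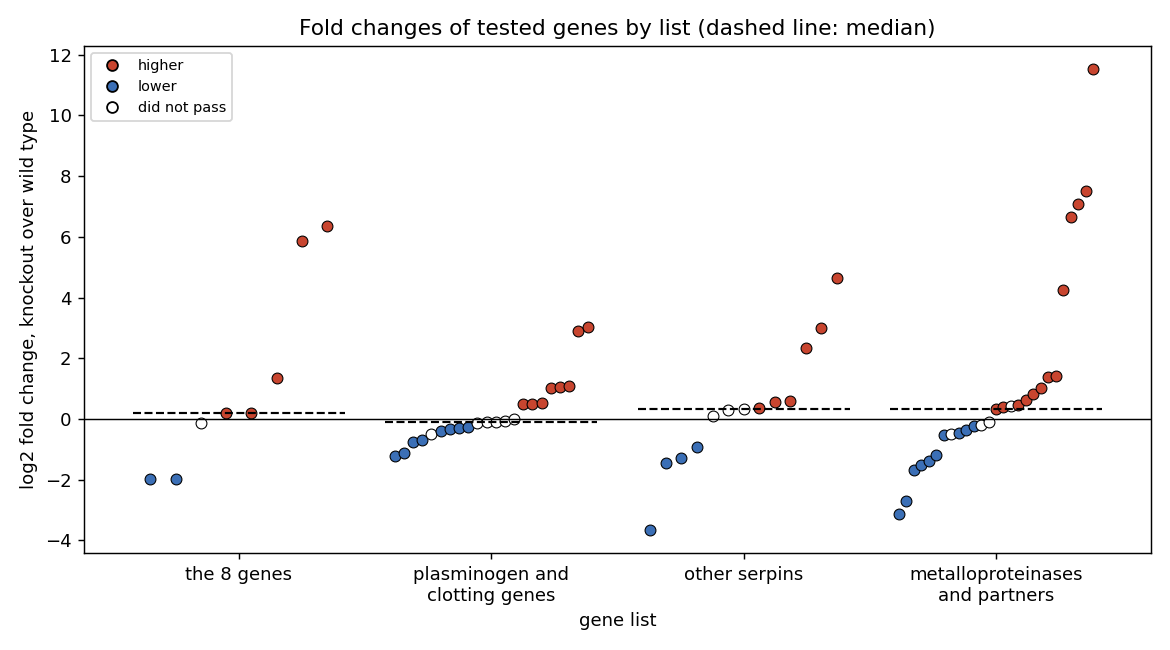
Log2 fold changes of the 8 genes and of the tested genes of the 3 lists (22, 13 and 27 genes), each point a gene, red for higher, blue for lower and white for not past the threshold, with a dashed line at each median. Each list has genes on both sides of 0, and the highest point is Mmp13 among the metalloproteinases and partners.

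Across the 6 libraries the level of each gene was compared with that of every other gene at a mean of at least 5 CPM, as a description. Since the libraries fall into 2 groups, a high Pearson correlation of log2 CPM chiefly reflects a like difference between groups relative to a like spread. Most alike were G3bp1 and Dkk3 for Plat, Tap2 and Stx6 for Plaur, Slc23a2 and Chka for Serpine2, Itgb1bp1 and Xaf1 for Serpinb2, Nfe2l1 and Xab2 for Timp2, and Tpm1 and Vdac1 for Timp3, each at r of at least 0.999. For these 6 genes between 235 and 769 genes exceeded r = 0.99. For Timp1 (Cox7a2l, r = 0.994, and Wdr70, r = 0.993) only 3 genes did so.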

How the data were processed

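The deposited table gives unnormalized read counts by gene symbol in 6 columns, each matched to a sample by its title, with 0 columns of other samples. Per the submitters' processing notes, which give no roles, the authors used limma 3.48.3, edgeR 3.34.0, HTSeq 0.11.2, STAR 2.7.1a and fastp 0.20.0, and builds GRCm38 and mm10; annotation release and strand setting: not given in the sources used here. Genes kept by filterByExpr (14877 of 55453) were scaled by TMM and compared with the quasi-likelihood test of edgeR 4.0.16 (R 4.3.3), with a common biological coefficient of variation of 0.0957; the fit was tested on simulated data. CPM values use library sizes scaled by TMM; each SE is the fold change divided by the root of its F statistic. Log2 ratios of pairs used counts plus 0.5. Exons and positions came from GENCODE M21 (GRCm38), where all 8 symbols matched 1 gene each. Motifs were searched in the 250 bases before each RefSeq start.

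Replicate pairs of a group gave chi-square statistics of 3.41 to 48.4 per degree of freedom, so no 2 libraries agreed within sampling noise. The deviations of same-numbered libraries from their group means correlated at 0.83, 0.58 and 0.60 for numbers 1, 2 and 3. The main fit did not pair the libraries. Only the replicate block, an alternative, paired them by number, and no label gives such a pairing. Wild type 3 with knockout 2 (0.66) and wild type 2 with knockout 3 (0.48) correlated about as well, so the data set the libraries numbered 1 apart without matching 2 to 2 and 3 to 3. Alternatives were other scalings, no filter, DESeq2 1.42.0, limma-trend (limma 3.58.1), a replicate block, a fold threshold and leaving out libraries. The 8 genes and the lists were chosen with earlier results of these data known. Named genes are the 8; from each list up to 6 tested genes of lowest adjusted p with a mean of at least 5 CPM in a group; and the 2 genes most alike to each of the 8 (those of Plau are not reported here); others are marked, apart from Ppp2ca, marker genes and genes that overlap the 8.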

Additional observations from a re-analysis of the deposited data

How the results depend on the processing

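No gene among the 8 changed direction under any of the 14 other settings of the fit, and 98 of 112 fold changes stayed on their side of the threshold; the other 14 belong to Plau, Timp1 and Timp2. The number of the 8 genes called higher was 3 with upper-quartile factors and 3 against a fold change of 1.5, and 3 to 5 with 1 library left out (3 without wild type 3, knockout 2 or knockout 3). Against a fold change of 1.5, 2009 of all genes were called higher and 1957 lower, and the lists kept 5 higher and 2 lower plasminogen and clotting genes, 3 higher and 3 lower other serpins, and 9 higher and 6 lower metalloproteinases and partners. Pairing the libraries by a replicate block made Plau (log2 fold change -0.15) the third of the 8 called lower and changed no other call among them; over all genes it called 5721 higher and 5774 lower, and 10 plasminogen and clotting genes lower in place of 8. The difference in the log2 ratio of Timp1 to Timp2 was 0.0514 without both libraries numbered 1 and -0.0690 to 0.0391 with 1 library left out, so it has no stable sign; the other 7 pairs kept theirs. The level of Serpinb2 in wild type rests on 13 counts, which limits the precision of its fold change. Counts without molecular identifiers also do not set duplicate reads apart.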

Other observations

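Serpinb2 lies in a cluster of serpin genes of clade B on chromosome 1, and its neighbours there, looked up after its value was seen, did not share its rise. Of the 11 other clade B serpin genes annotated on that chromosome, Serpinb3a, Serpinb3b, Serpinb3c, Serpinb3d, Serpinb7, Serpinb10, Serpinb12 and Serpinb13 had 0 counts in all 6 libraries. Serpinb11 had 1 count over the knockout libraries, and Serpinb5 had 1 count in each group. Serpinb8, from 107590006 to 107610484, fell (log2 fold change -0.91, SE 0.11, edgeR adjusted p = 8.52e-05).

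Genes that overlap the TIMP genes were also read after the fact. Syn1, the synapsin gene that spans Timp1 on the opposite strand, was at 8.05 ± 0.956 and 6.19 ± 0.703 CPM (SD, n = 3; log2 fold change -0.38, edgeR adjusted p = 0.0282). Cep295nl, which lies within Timp2 on the same strand with 0 shared exon bases, rose from 4.06 ± 0.685 to 9.04 ± 0.688 CPM (SD, n = 3; log2 fold change 1.16, SE 0.14, edgeR adjusted p = 8.45e-05), a larger log2 change than the 0.21 of Timp2.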
